A study of Mus musculus with 6 samples.

Results

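The genes described here are 10 regulators of the G1 phase of the cell cycle: the kinases Cdk4 and Cdk6, the D cyclins Ccnd1, Ccnd2 and Ccnd3, the inhibitors Cdkn2c, Cdkn1a and Cdkn1b, and the pocket proteins Rb1 and Rbl2. They were picked by symbol, and all 10 were found among the 17068 genes of the authors' deposited tables. Droplet single-cell sequencing was used to read the RNA of haematopoietic stem cells (HSCs) purified from marrow of Gfp-Lc3 mice, whose transgene makes autophagosomes fluorescent by a GFP tag on LC3. There were 6 libraries, 3 from young and 3 from old mice: ad lib feeding, a fast of 24 hours, and a fast of 24 hours followed by 24 hours of refeeding. All 6 groups shared the reporter genotype and each was 1 library. The tables used compare each of 11 clusters, numbered 0 to 10, with the rest of the cells of all 6 libraries together, so age and feeding cannot be told apart in any value below, and no value carries an error between animals.

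Cells in early G1 decide whether to enter the cycle. D cyclins bind CDK4 or CDK6, and the active kinase phosphorylates the pocket proteins, which otherwise hold E2F transcription factors in check. INK4 inhibitors such as p18, the product of Cdkn2c, bind the kinase itself, while CIP/KIP inhibitors such as p21 (Cdkn1a) and p27 (Cdkn1b) bind cyclin and kinase complexes. In blood stem cells, most of which are resting, CDK6 level is known to bear on how fast a cell leaves quiescence, and loss of p18 is known to raise stem cell self-renewal.

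The 2 members that moved most among the large clusters, Cdk6 and Cdkn2c, and the near relative of Cdk6 that moved less, Cdk4, are shown by the 250 bases before the start of transcription (RefSeq, build GRCm38.p6, each 5′ to 3′ on the gene's strand). Capitals mark CACGTG, the E-box bound by MYC and related factors, which reads the same on both strands. The Cdk6 window lies at chr5:3343643-3343892 (plus strand), that of Cdkn2c at chr4:109666757-109667006 (minus strand, the first of 2 starts in RefSeq) and that of Cdk4 at chr10:127063285-127063534 (plus strand). RefSeq places the start 2408 bases downstream of the GENCODE start for Cdk6 and 433 bases downstream for Cdkn2c, so these 2 windows lie inside the gene spans given below.
Cdk6: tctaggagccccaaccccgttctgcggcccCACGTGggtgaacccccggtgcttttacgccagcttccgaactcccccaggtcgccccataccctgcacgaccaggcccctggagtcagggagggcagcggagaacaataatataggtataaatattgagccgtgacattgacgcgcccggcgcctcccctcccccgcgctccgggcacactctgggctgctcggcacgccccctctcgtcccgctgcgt
Cdkn2c: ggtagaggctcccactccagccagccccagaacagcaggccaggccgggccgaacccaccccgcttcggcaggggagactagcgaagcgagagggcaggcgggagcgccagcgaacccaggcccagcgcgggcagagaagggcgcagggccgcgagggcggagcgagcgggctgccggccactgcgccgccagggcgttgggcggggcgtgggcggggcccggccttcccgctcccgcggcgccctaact
Cdk4: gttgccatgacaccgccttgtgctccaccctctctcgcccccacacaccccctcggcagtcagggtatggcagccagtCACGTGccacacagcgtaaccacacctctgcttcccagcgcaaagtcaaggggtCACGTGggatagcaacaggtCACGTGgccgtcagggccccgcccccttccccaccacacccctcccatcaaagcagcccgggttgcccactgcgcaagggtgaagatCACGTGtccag
The Cdk4 window held 4 E-boxes, at 172, 118, 98 and 11 bases before the start. That of Cdk6 held 1 and that of Cdkn2c none. Among 32851 promoters of this length 6.02% held at least 1 E-box, and 20 (0.0609%) held 3 or more. The E2F motifs TTTCCCGC and TTTGGCGC, present on either strand in 0.895% and 0.417% of promoters, were in no member's window. The FOXO motif GTAAACA, present in 3.17%, was in 1 of the 2 windows of Ccnd3. RefSeq entries were found for 7 of the 10 genes, with 10 windows in all. GC content was 66% for Cdk6, 77.2% for Cdkn2c and 64.4% for Cdk4. A match of letters is a description and not a binding site. The E-box was added to the search after the data were seen.

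Cluster sizes, read from the deposited p-values of genes seen in 1 cell, were 4904, 3955, 3910, 3802, 3747 and 1188 cells in clusters 0 to 5 and 310, 267, 173, 112 and 10 cells in clusters 6 to 10. With each of these 19 genes taken as 1 count, total counts could be worked out for the cells holding them. The median total was 11707 (4239 to 22599). The sizes take the p-values to be from Welch's t-test, which the sources used here do not state. Summed levels of long-term HSC markers lay between 9.40 and 16.7 counts per 10000 in the 11 clusters, and those of B cell markers at or below 0.0230. T cell markers summed to at most 0.0170 outside cluster 6, where they summed to 0.103. In the authors' deposited tables the 8528 genes at or above the median level had a median log2 fold of -0.26, -0.11, 0.11 and 0.31 in clusters 6, 7, 8 and 10, and within 0.05 of 0 elsewhere. This median is called the cluster's shift below.

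A gene was called higher or lower where the authors' deposited log2 fold reached 0.5 in either direction with an adjusted p under 0.05. The authors had formed the clusters from the same values and the deposited p-values are over cells, so a call is a rule of size and no test. By this rule 13 of 110 pairs of a member and a cluster were called, 3 higher and 10 lower. Cluster 0 had Cdk6 and Cdkn2c higher and no member lower, against 2.4% of all genes called higher and 6.62% lower. Cluster 2 had the same pair of genes lower and no member higher (3.49% of all genes lower, 3.02% higher). Cdk6 was the 1 member called lower in cluster 3 (1.9% of all genes lower, 0.703% higher). In cluster 6 Cdk6, Ccnd2, Cdkn1a and Rbl2 were called lower, in a table where 26.2% of all genes were lower and 0.0469% higher. Cdk4 alone was lower in cluster 7 (24.3% lower, 1.84% higher), and Ccnd1 and Cdkn2c were lower in cluster 8 (19.5% lower, 2.37% higher). The lower shares of all genes in clusters 6, 7 and 8 hold many genes without a count in the cluster. Genes called lower with a count were 12.2%, 9.46% and 3.46% of all genes there. Members called lower in these clusters are to be read against these smaller shares too, since each member had counts. In cluster 9 Cdkn1a was the 1 member called higher, against 1.2% of all genes higher and 19.9% lower. No member was called in cluster 1 (0.123% of all genes higher, 2.4% lower), cluster 4 (0.387% and 1.35%), cluster 5 (0.135% and 4.87%) or cluster 10 (1.79% and 27.6%). Every member had counts in every cluster. Ccnd3, Cdkn1b and Rb1 were called in no cluster.

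**Figure D1:**
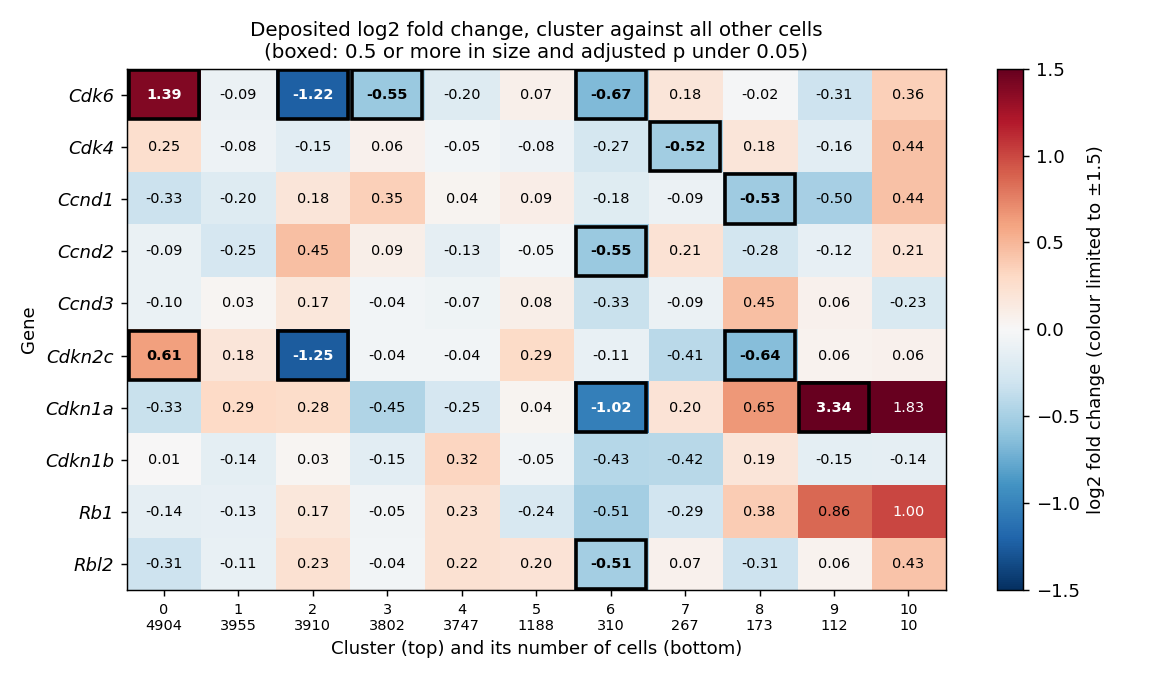
Deposited log2 fold change of each gene (rows) in each cluster (columns, with the number of cells) against all other cells. Boxes mark the 13 called pairs. Cdk6 and Cdkn2c are high in cluster 0 (1.39 and 0.61) and low in cluster 2 (-1.22 and -1.25), and Cdkn1a stands out in cluster 9 (3.34).

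Levels are given below as counts per 10000 per cell, back-transformed from the mean of the natural log of 1 plus the scaled count, solved for each cluster from the deposited folds, the mean over all cells and the cluster sizes. They run lower than plain means, to a degree that depends on the gene, and are compared within a gene only. No spread over animals exists for them, so the order of neighbouring clusters cannot be tested.

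Cdk6, a G1 kinase with known roles in blood stem and progenitor cells, differed most among the large clusters. It lies at chr5:3341485-3531008 (plus strand, mm10). Its level in clusters 0 to 5 was 1.85, 0.864, 0.441, 0.659, 0.812 and 0.954, and in clusters 6 to 10 it was 0.576, 1.03, 0.897, 0.736 and 1.17. From the highest level to the lowest, the order of the clusters was 0, 10, 7, 5, 8, 1, 4, 9, 3, 6 and 2. Cluster 0 lay above every other and cluster 2 below every other, with a ratio of 4.20 between them. In the authors' deposited tables the log2 fold was 1.39 (2.62-fold) in cluster 0. The folds in clusters 2, 3 and 6 were -1.22, -0.55 and -0.67. The fold of -0.67 in cluster 6 stood beside a shift of -0.26. In the 6 large clusters, 0 to 5, the range of its folds was 2.61, at the 100th percentile of 500 genes of like mean level, whose median range was 0.27.

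Cdk4, which shares the D cyclins as partners, varied far less. It lies at chr10:127063534-127067920 (plus strand, mm10), and its level was 1.28, 1.07, 1.03, 1.16, 1.09 and 1.07 in clusters 0 to 5. In the smaller clusters it was 0.936 (cluster 6), 0.785 (cluster 7), 1.27 (cluster 8), 1.01 (cluster 9) and 1.52 (cluster 10). Cluster 7 was the low end, with a deposited log2 fold of -0.52 beside a shift of -0.11, and less that shift the fold no longer reached 0.5 in size. In clusters 0 to 5 the range of its folds was 0.40, at the 76.6th percentile of genes of like level, and over clusters 0 to 9 it was 0.77, at the 48th. In cluster 0 its fold was 0.25 and was not called.

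The 2 kinases were set side by side as folds, not as levels. The log2 fold of Cdk6 less that of Cdk4 from the authors' deposited tables was 1.14, -1.07, -0.61 and 0.70 in clusters 0, 2, 3 and 7. Clusters 1, 4, 5, 8 and 9 had differences between -0.20 and 0.15, and cluster 6 had -0.40. Both kinases were above 0 in clusters 0 and 10, and both were below 0 in clusters 1, 2, 4, 6 and 9.

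**Figure D2:**
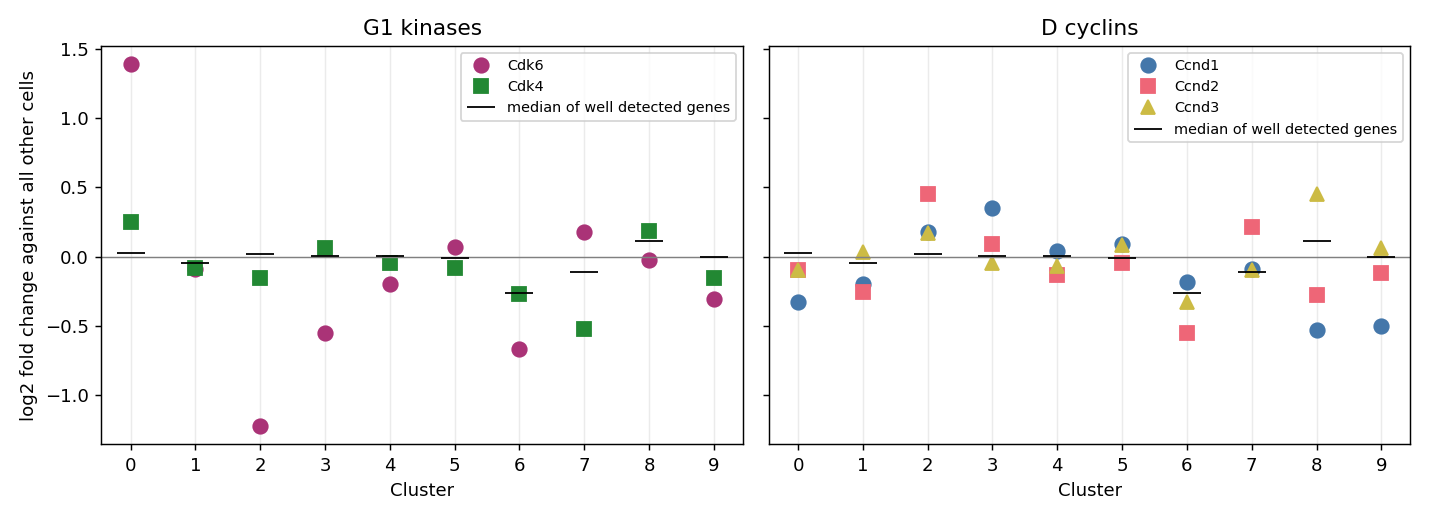
Deposited log2 fold change of the 2 kinases (left) and the 3 D cyclins (right) in clusters 0 to 9. Black dashes are the median fold of the 8528 genes at or above the median level. Cdk6 runs from 1.39 to -1.22 while Cdk4 stays between 0.25 and -0.52, and the D cyclins part most in cluster 8.

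The D cyclins showed smaller differences, and none had its highest level in cluster 0 or its lowest in cluster 2. Ccnd2 (chr6:127125162-127152193, minus strand) was at 2.37, 2.16, 3.23, 2.63, 2.32 and 2.42 in clusters 0 to 5. In the smaller clusters it was at 1.71 (cluster 6), 2.89 (7), 2.06 (8), 2.30 (9) and 2.88 (10). Its highest level was in cluster 2, where Cdk6 was lowest, and its lowest in cluster 6. The deposited log2 fold of Ccnd2 was 0.45 in cluster 2, under the size of a call, and -0.55 in cluster 6, which is called but no longer reached 0.5 less the shift.

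Ccnd1 (chr7:144929931-144939925, minus strand), the D cyclin best known as a target of mitogen signals, was at 0.332 in cluster 3 and 0.300 in cluster 2. Clusters 0, 1, 4 and 5 had 0.227, 0.242, 0.278 and 0.289, and clusters 6 to 9 had 0.240, 0.255, 0.188 and 0.192. Cluster 10, with about 6.18 counts, was at 0.368. Its deposited log2 fold of -0.53 in cluster 8 was called and that of -0.50 in cluster 9 was not. In cluster 0, the Cdk6-high cluster, Ccnd1 was at -0.33.

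Ccnd3 (chr17:47505051-47599691, plus strand) was at 1.80 in cluster 8, its highest level, and at 1.06 in cluster 6, its lowest. Clusters 0 to 5 had 1.26, 1.35, 1.46, 1.29, 1.27 and 1.40, and clusters 7, 9 and 10 had 1.24, 1.38 and 1.13. The deposited log2 fold in cluster 8 was 0.45 and was not called. Cluster 8 thus had Ccnd3 at 0.45, Ccnd2 at -0.28 and Ccnd1 at -0.53, and its highest less its lowest D cyclin fold of 0.98 was the largest in clusters 0 to 10. That difference was 0.40, 0.56 and 0.67 in clusters 3, 9 and 10 and at most 0.37 in the others. Cluster 8 was also where 2 of 6 cycling cell markers were called higher in the authors' deposited table, Mki67 at 2.98 and Ube2c at 2.54. Top2a and Cdk1 had the highest mean levels of the list (log2 -3.19 and -3.86), against -5.59 for Mki67 and -6.14 for Ube2c. Birc5 (0.69), Ccnb1 (0.22), Cdk1 (0.08) and Top2a (-0.11) were not called in cluster 8, whose shift was 0.11. The summed level of the 6 markers was 0.466 there and 0.224 to 0.306 in the other clusters, with cluster 0 next highest, and each of the 6 had counts there. Their part in the cyclin folds was not tested.

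**Figure D3:**
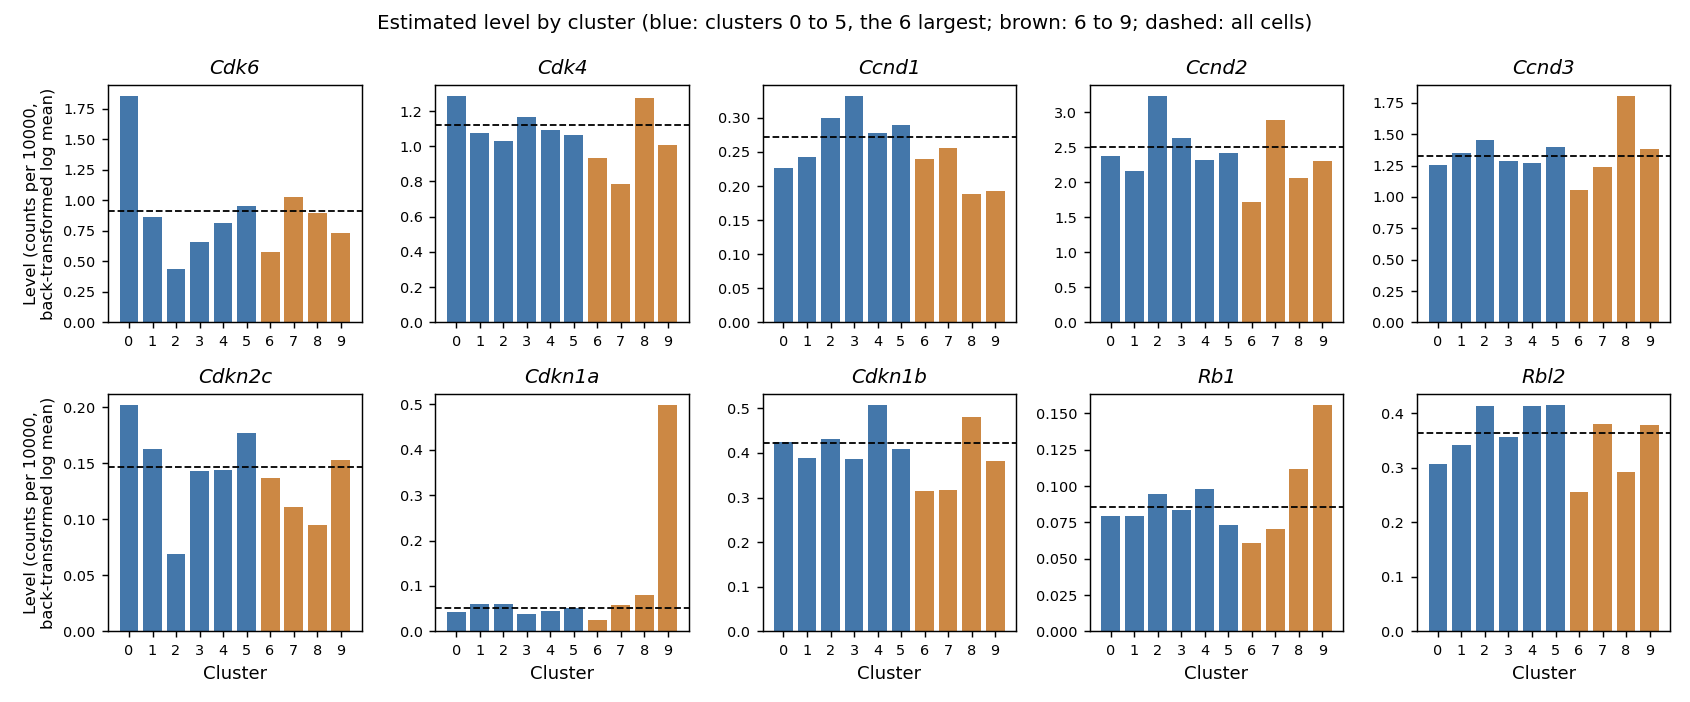
Estimated level of each gene in clusters 0 to 9, in counts per 10000 per cell (back-transformed log mean, own axis for each gene, from 0). Blue bars are the 6 largest clusters, brown bars the 4 smaller ones, and the dashed line is the level over all cells. Cdk6 falls from 1.85 in cluster 0 to 0.441 in cluster 2, and Cdkn1a reaches 0.498 in cluster 9.

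Cdkn2c (chr4:109660876-109667189, minus strand), which encodes the INK4 inhibitor p18, a direct binder of CDK6 and CDK4, had the same high and low ends among the clusters as Cdk6. Its level in clusters 0 to 5 was 0.202, 0.162, 0.0689, 0.143, 0.143 and 0.177, and in clusters 6 to 10 it was 0.136, 0.111, 0.0945, 0.152 and 0.153. Cluster 0 was 2.92 times cluster 2. The authors' deposited log2 folds in clusters 0, 2 and 8 were 0.61, -1.25 and -0.64. Away from these ends the kinase and its inhibitor parted: cluster 3 had Cdk6 at -0.55 and Cdkn2c at -0.04, and cluster 8 had Cdk6 at -0.02 and Cdkn2c at -0.64. Over clusters 0 to 9 the correlation of their folds was 0.69, a description over 10 points that share the pooled rest. Its range of 1.86 in clusters 0 to 5 was at the 99.4th percentile of genes of like level.

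Cdkn1a (chr17:29090976-29100727, plus strand), which encodes p21, the inhibitor induced by p53 and by stress, was low in most clusters and high in cluster 9. Its level was 0.0424, 0.0601, 0.0596, 0.0392, 0.0441 and 0.0522 in clusters 0 to 5. Cluster 6 was at 0.0253 on about 14.4 counts, clusters 7 and 8 at 0.0586 and 0.0799, and cluster 9 at 0.498 on about 102 counts. Cluster 9 lay above all others, 19.7 times cluster 6. The authors' deposited log2 fold was 3.34 in cluster 9 (10.1-fold) and -1.02 in cluster 6, and the second stayed past 0.5 in size less the shift. A fold of 1.83 in cluster 10 rests on about 3.34 counts in 10 cells and was not called. Among the 6 large clusters its range of 0.74 was at the 85.4th percentile of genes of like level.

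Cdkn1b (chr6:134920401-134925513, plus strand), which encodes p27, a CIP/KIP inhibitor tied to resting cells, was called in no cluster. Its level was 0.424, 0.389, 0.430, 0.387, 0.507 and 0.409 in clusters 0 to 5, and 0.315, 0.318, 0.480, 0.382 and 0.384 in clusters 6 to 10. The top was cluster 4, and clusters 6 and 7 were the low end. The folds ran from -0.43 in cluster 6 to 0.32 in cluster 4 in the authors' deposited tables. In clusters 0 and 2, where Cdkn2c was high and low, Cdkn1b was at 0.01 and 0.03.

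Neither pocket protein was called in the 6 large clusters, where the range of folds was 0.46 for Rb1 and 0.54 for Rbl2. Rb1 (chr14:73183673-73325822, minus strand), the retinoblastoma protein gene, was at 0.0796, 0.0798, 0.0946, 0.0833, 0.0978 and 0.0735 in clusters 0 to 5. In clusters 6 to 10 it was at 0.0606, 0.0703, 0.112, 0.156 and 0.172. The top 2 were clusters 10 and 9, where the deposited log2 folds of 1.00 (about 2.78 counts) and 0.86 passed the size and not the adjusted p. Rbl2 (chr8:91070057-91123844, plus strand) encodes p130, the pocket protein that joins E2F4 in resting cells. Its level was 0.307, 0.341, 0.414, 0.356, 0.412 and 0.414 in clusters 0 to 5, and 0.256, 0.380, 0.292, 0.378 and 0.488 in clusters 6 to 10. Rbl2 was lowest in cluster 6, where its deposited log2 fold of -0.51 was called and stood beside the shift of -0.26.

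All 10 members had a deposited log2 fold below 0 in cluster 6, with a median of -0.47 against the shift of -0.26. Less the shift, 1 of the 4 calls there, Cdkn1a, kept a size of 0.5. Erythroid markers summed to 5.96 counts per 10000 in cluster 6 and to between 0.472 and 2.82 in the other clusters, with 0 of 6 called higher and 1 of 6 at 0 there. Their part in the member folds was not tested.

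**Figure D4:**
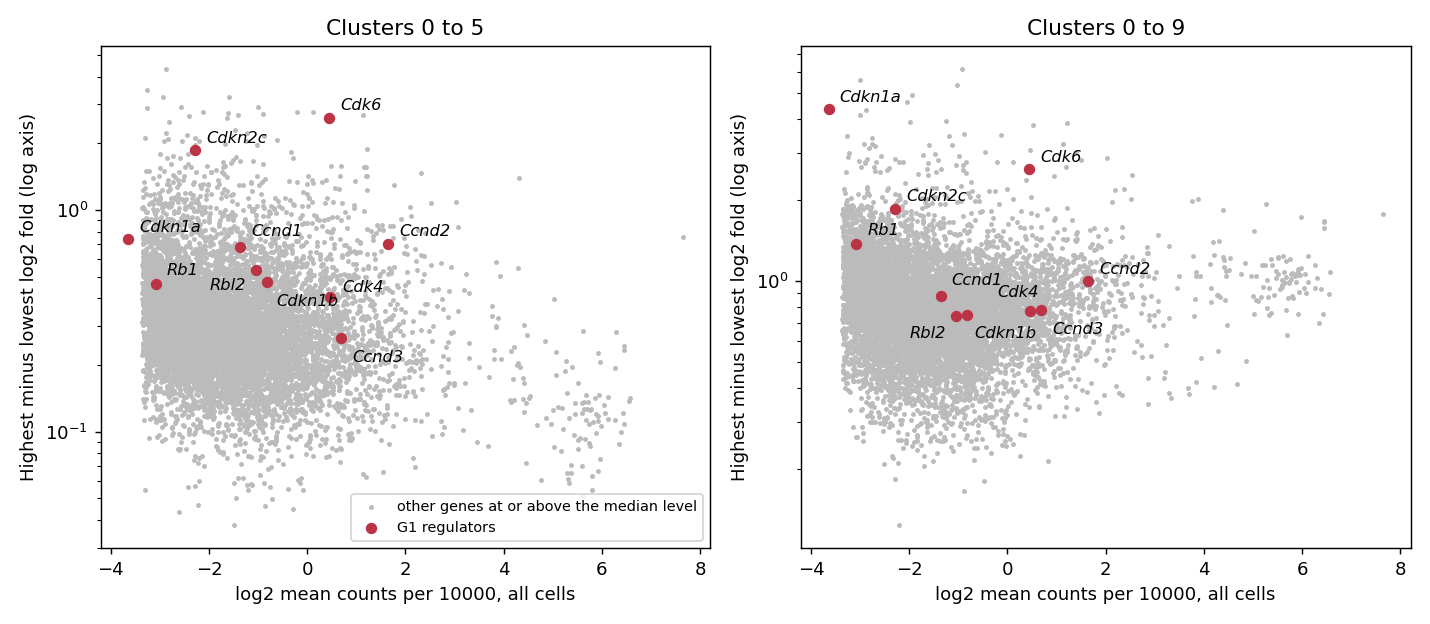
Highest minus lowest deposited log2 fold (log axis) against log2 mean counts per 10000, for the 10 genes (red) and all other genes at or above the median level (grey), over clusters 0 to 5 (left) and 0 to 9 (right). Cdk6 and Cdkn2c lie high in both panels (2.61 and 1.86), while Cdkn1a is at 0.74 on the left and 4.36 on the right.

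How much each member varied depended on which clusters were taken. Over clusters 0 to 9 the range of folds was at the 100th percentile of 500 genes of like level for Cdkn1a, the 99.6th for Cdk6 and the 98.8th for Cdkn2c. Rb1 was at the 85.8th and Ccnd1 at the 71st. Cdk4, Ccnd2, Ccnd3, Cdkn1b and Rbl2 lay between the 48th and the 63rd. In the 6 large clusters Ccnd1 (95.4th), Ccnd2 (92.4th) and Rbl2 (90th) stood higher, as did Cdkn1b (83.8th) and Cdk4 (76.6th). Rb1 (70.4th) and Cdkn1a (85.4th) stood lower than over clusters 0 to 9, and Ccnd3 (51.2nd) stayed near the middle. These percentiles describe the members and test nothing.

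Clusters 0 and 2, the ends of the Cdk6 range, are set side by side here as levels. The level in cluster 0 as a ratio to that in cluster 2 was 4.20 for Cdk6, 2.92 for Cdkn2c and 1.25 for Cdk4, and 0.986 for Cdkn1b. The D cyclins were lower in cluster 0 than in cluster 2, with ratios of 0.735 for Ccnd2, 0.756 for Ccnd1 and 0.862 for Ccnd3. Rbl2 had a ratio of 0.741, Rb1 of 0.841 and Cdkn1a of 0.712. Cluster 0 thus held more kinase and p18 transcript and less D cyclin transcript than cluster 2. None of the ratios for the other 8 genes was as far from 1 as those of Cdk6 and Cdkn2c. Each cluster is part of the rest that the other was compared with.

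Some markers of other cell types also differed between these clusters. In cluster 0, 5 of 6 megakaryocyte markers were called higher in the authors' deposited table, among them Itga2b, the platelet integrin, at 1.17. Their summed level was 2.45 in cluster 0, 1.47 in cluster 2 and 1.38 to 2.29 in the other clusters. Of 4 lymphoid-primed markers measured 3 were called higher in cluster 0, Flt3 at 0.66, Cd48 at 1.71 and Cd34 at 0.92, and the same 3 were called lower in cluster 2. They summed to 1.42 in cluster 0 and 0.558 in cluster 2. That sum is mostly Cd34, whose log2 mean level over all cells was -0.30, against -3.58 for Flt3 and -7.60 for Cd48. Mast or basophil markers (2 of 4 called higher in cluster 0) summed to 0.0474 in cluster 0 and 0.00789 in cluster 2. Erythroid markers (2 of 6 higher, 1 lower) summed to 1.15 and 1.16, nearly alike. Granulocyte-monocyte markers (1 of 5 higher) summed to 8.07 in cluster 0 and 6.63 in cluster 2, both below the 10.7 of cluster 1 and the 10.5 of cluster 5. Prtn3 makes up most of these sums, with a log2 mean level over all cells of 3.07, against -6.00 for Ms4a3 and -8.19 for Mpo. By the list's median log2 fold, cluster 0 stood higher (0.97) than clusters 1, 2 and 5 (0.27, -0.44 and -0.74). Folds above 0 were seen for 3 of the 5 genes in cluster 0 and for all 5 in cluster 1. Of 6 cycling cell markers 5 were above 0 in cluster 0 and 1, Top2a (0.54), was called higher, with a sum of 0.306. No endothelial marker of 4 was called higher and 1 was called lower. Long-term HSC markers went the other way, with 5 of 8 lower in cluster 0 and 3 of 8 higher in cluster 2. Every marker measured had counts in cluster 0, and the part of any such cells in the Cdk6 fold was not tested.

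Genes that act with the kinases were read from 12 lists, with 103 of 105 genes measured. Of the 6 measured kinases and cyclins of the G1 to S step (Cdk2, Ccne1, Ccne2, Ccna2, Cdc25a and Cks1b) 0 were called with a count in clusters 0 to 9, and in cluster 0 their median log2 fold was 0.21 against a shift of 0.02. Ccne1, Ccne2 and Ccna2 were sparse, with log2 mean levels of -6.97, -7.28 and -7.12, while the shift is over genes at -3.36 or above. The lack of calls among these sparse genes therefore says little of their levels. Among 14 E2F target genes of DNA replication none was called higher in clusters 0 to 9, and 2 with counts were called lower, Cdc6 in cluster 2 (-0.59) and Mcm4 in cluster 6 (-0.61). Their median in cluster 0 was 0.19, with 12 of 14 above 0. In the Cdk6-high cluster the S phase genes downstream of the kinase stood above the shift by less than the size of a call. In cluster 10, with 10 cells, Mcm3 (1.30) and Pcna (1.13) were called higher in the authors' deposited table.

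Of 10 E2F and DP factors, which carry out or repress that program, E2f1 (0.53) and E2f8 (0.82) were called higher and E2f7 (-0.64) lower in cluster 0. E2f8 and E2f2 were lower in cluster 5 (-2.68 and -2.28), E2f5 and Tfdp2 in cluster 6 (-0.59 and -0.57), and E2f3 in cluster 9 (-0.79). E2f8, E2f2 and E2f7 were sparse, with log2 mean levels over all cells of -7.62, -8.19 and -6.42. The median over genes was -3.36, so the folds of these sparse genes rest on few counts. The DREAM complex is a repressor of cycle genes in resting cells. Among 7 partners of the pocket proteins in it, Rbbp4 was lower in cluster 7 (-0.58) and Lin9 in cluster 8 (-0.85). Less the shift the fold of Rbbp4 no longer reached 0.5 in size. Lin9 had a log2 mean level of -3.28 and cluster 8 held 173 cells, so that fold rests on few counts. Of the 3 subunits of the CDK-activating kinase, Ccnh (-0.64) and Mnat1 (-0.55) were called lower in cluster 6, and Ccnh was called higher in the 10 cells of cluster 10 (0.68).

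Cdkn1c, which encodes p57, the third CIP/KIP inhibitor and one known for holding blood stem cells at rest, mirrored Cdk6 in clusters 0 and 2. It belonged to a list of 4 other inhibitors and was called lower in clusters 0 (-0.91) and 7 (-0.53) and higher in cluster 2 (0.92) in the authors' deposited tables. Less the shift the fold of Cdkn1c in cluster 7 no longer reached 0.5 in size, and Cdk6 stood at 0.18 there. In clusters 3 and 6, where Cdk6 was called lower, Cdkn1c was at 0.18 and -0.03 and was not called. The INK4 gene Cdkn2d was called lower in cluster 7 (-0.83). With Cdkn2c low and Cdkn1c high in cluster 2, the inhibitor genes did not move as a block.

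Of 14 genes of the p53 pathway, Btg2, an antiproliferative gene that also answers to immediate early stimuli, was called higher in cluster 9 (3.18) beside Cdkn1a, and the other 13 were not called there. Btg2 was lower in cluster 3 (-0.63) and cluster 6 (-0.64). Pmaip1 was lower in cluster 3 (-2.70), Phlda3 higher in cluster 2 (0.61), and Gadd45a (-0.90) and Bbc3 (-0.76) lower in cluster 7. Pmaip1 had a log2 mean level over all cells of only -9.84, so its fold rests on few counts. Of 9 FOXO, TGF-beta and KLF regulators Klf4 (2.62) and Klf6 (1.76), both known activators of Cdkn1a, were called higher in cluster 9. Klf6 was also lower in cluster 0 (-0.77), higher in cluster 2 (0.62) and lower in cluster 6 (-0.60). Klf4 was lower in cluster 5 (-0.65) and Smad4 in cluster 6 (-0.59).

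The mitogen and cytokine inputs to the D cyclins, 13 genes, held the immediate early genes that marked cluster 9: Fos (3.26), Egr1 (2.35) and Jun (1.89) were called higher there. Fos (0.61) and Jun (0.59) were also higher in cluster 4. Both were lower in cluster 8 (-0.59 and -0.56), Fos was lower in cluster 3 (-0.63), and Jun and Egr1 were lower in cluster 6 (-0.59 and -0.67). None of the 3 D cyclins was called higher in cluster 9, where Ccnd1 was at -0.50, Ccnd2 at -0.12 and Ccnd3 at 0.06.

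Along the Cdk6 axis this list split. Myc, which drives growth and cycle entry, was higher in cluster 0 (0.52) and lower in cluster 6 (-0.87). Socs2 and Cish, feedback inhibitors induced by STAT5, were lower in cluster 0 (-1.16 and -0.94) and higher in cluster 2 (1.53 and 1.03), and Pik3r1 went the same way (-0.57 and 0.68). In the authors' deposited tables Cish was also higher in cluster 1 (0.51) and lower in clusters 3 (-0.56) and 8 (-0.69). Socs2 was also lower in clusters 5 (-0.68), 6 (-0.62) and 9 (-1.30).

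Among 11 genes of D cyclin and inhibitor turnover, Cul1 (-0.53) and Gsk3b (-0.55) were lower in cluster 6 and Ddb1 (0.55) higher in cluster 8. Of 3 kinase chaperones Cdc37, which loads CDK4 and CDK6 onto HSP90, was lower in cluster 7 (-0.52), beside a shift of -0.11. Cdk4 was also lowest in cluster 7, and less the shift neither gene reached 0.5 in size. Cdk6 stood at 0.18 there and was not called. Of 9 other CDK and cyclin-like genes Cdk12 (-0.71), Cdk13 (-0.59), Cdk14 (-0.79) and Cdk17 (-0.54) were lower in cluster 6. Cdk14 was at -2.53 in cluster 8, where Ccng2 was higher (0.60), and Ccndbp1 was lower in cluster 7 (-0.54). With a log2 mean level of -2.86 for Cdk14 and 173 cells in cluster 8, its fold there rests on few counts. Less the shift the fold of Ccndbp1 no longer reached 0.5 in size. In cluster 6, 19 of the 103 listed genes with counts were called lower (18.4%) and 0 higher. There 12.2% of all genes were called lower with a count, and the shift was -0.26. Of these 19 genes only Myc (-0.87) and Cdk14 (-0.79) kept a size of 0.5 less the shift.

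**Figure D5:**
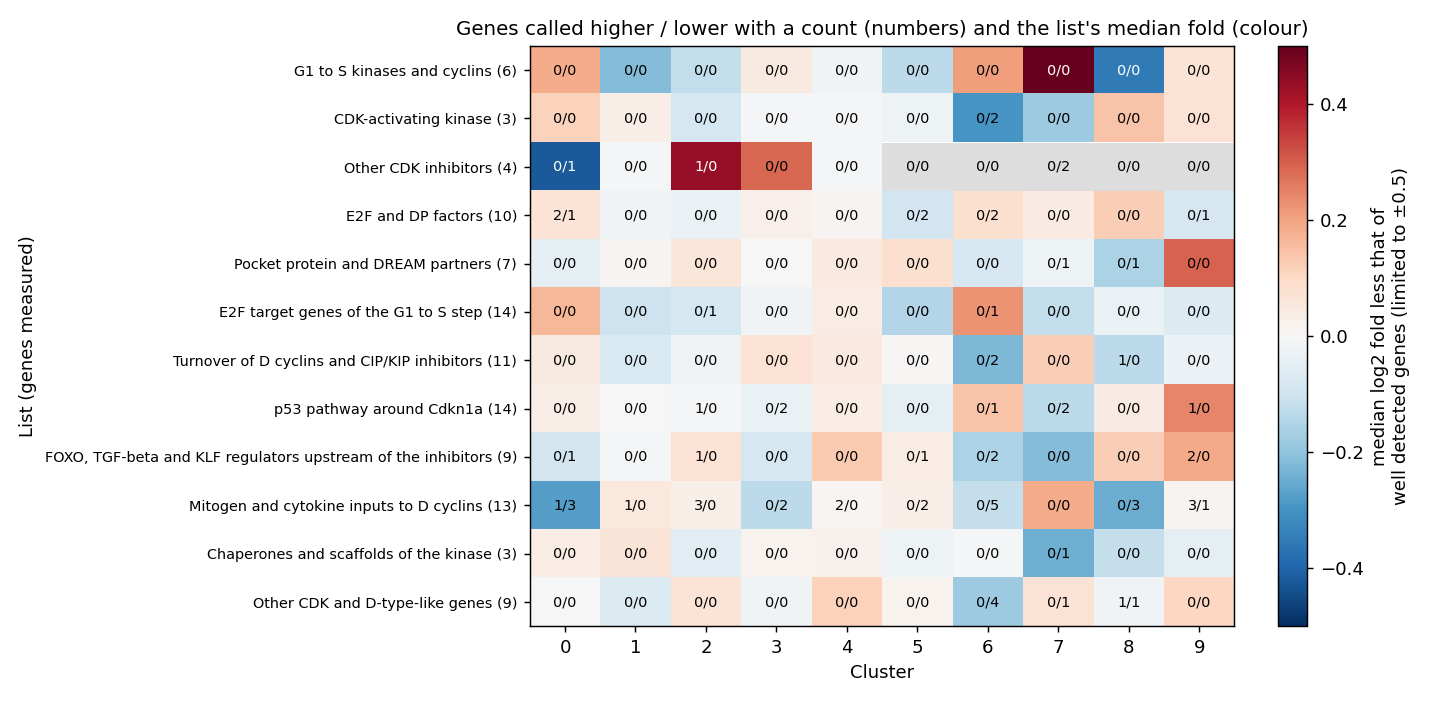
The 12 lists (rows, with genes measured) in clusters 0 to 9. Each cell gives the number of genes called higher and, after the slash, called lower with a count, and its colour the list's median deposited log2 fold less the cluster's shift (grey: no median, because too many genes of the list had no count). The kinases and cyclins of the G1 to S step, of which Ccne1, Ccne2 and Ccna2 were sparse, have no calls in any column. The mitogen and cytokine list has calls in 9 of 10.

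The genes whose folds over clusters 0 to 9 were most like those of Cdk6, among 8528 genes at or above the median level, were Ggt5 (Pearson r 0.925), the transcription factor gene Sox4 (0.920), Itga2b (0.906), the channel gene Trpv2 (0.905) and Cd34 (0.902). The most opposite were Cdkn1c (-0.907), Chil5 (-0.899), the cathepsin gene Ctsh (-0.896), the tetraspanin gene Cd82 (-0.895) and Ltb (-0.892), which encodes lymphotoxin beta. These are descriptions over 10 clusters that share the pooled rest. Without cluster 0 the r of the first 5 fell to between 0.785 and 0.879, and other genes took their places. The opposite genes stayed at -0.762 or below whichever cluster was left out.

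The authors' deposited pathway tables hold 28 pathways named for G1, cyclins, p27, RB1 or the cell cycle among 2922. In cluster 0 all 28 had a fold above 0, with a median of 0.08 against 0.02 over all pathways. The BioCarta G1 set was the highest at 0.25, and in cluster 2 it was the lowest of the 28 at -0.14. Cluster 8 had all 28 above 0 (median 0.13 against 0.09), and clusters 6 and 7 had all 28 below 0 (medians -0.23 and -0.19 against -0.21 and -0.10). In cluster 9 the set of p53-regulated G1 arrest genes stood at 0.53, past 0.5 as no other of the 28 did in clusters 0 to 9. Which genes each set holds was not analysed here, so a set is no result apart from the genes above.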

How the data were processed

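RNA of sorted HSCs was read in 6 libraries, 1 per age and feeding group. Per the submitters' processing notes the authors used Scanpy and the mm10 build. The sources used here do not give the aligner, the counting, the cell filters, the treatment of doublets, the clustering or the test. The authors deposited, for each cluster against all other cells, a log2 mean level, a log2 fold change, a p-value and an adjusted p-value per gene, and a pathway score (a signed test statistic over cells) with a log2 fold. The deposited level is the log2 of the mean count scaled to 10000 per cell, as its sum over genes shows. The adjusted p-values equal a Benjamini-Hochberg adjustment over all 17068 genes. The deposited folds are ratios of back-transformed log means, and no library can be separated in them.

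Cluster sizes were solved from deposited p-values of genes seen in 1 cell, taken as those of Welch's t-test. This was done for 7 clusters from both sides, and the sizes add up to 22378 cells. Levels per cluster were then solved from folds, means and sizes. The method was tested on simulated data. Folds under -10 mean no count in the cluster, and 13 genes had no count at all. Library depths were not analysed here. Python 3.11.15, numpy 2.4.6, scipy 1.17.1 and pandas 2.3.3 were used. Gene coordinates are those of GENCODE M21 on mm10.

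The members, lists, rule of size and comparisons were chosen with earlier results of these data known. All 10 members are named; from each list up to 4 genes past the rule of size were to be named by size of fold, and further ones were named after their values were seen. Dntt, Cd3e, Cd8a, Ccna1 and Kpc1 were not analysed here. With 1 library per group and clusters defined on these values no test was made. Alternatives were other fold sizes, a stricter adjusted p, centred folds, other clusters, other sizes and Spearman's rho.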

Additional observations from a re-analysis of the deposited data

How the results depend on the processing

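Counts of calls depend on the fold size, and Cdk6 in clusters 0 and 2 does not: less the shift its log2 folds there were 1.36 and -1.24. With a fold size of 0.25, members called numbered 5, 2, 4, 3, 1, 1, 7, 2 and 4 in clusters 0 to 8, pairs called higher 10 and lower 20, and pairs of listed genes in clusters 0 to 9 called higher 42 and lower 97. With a fold size of 1, members called were 1 in cluster 0, 0 in clusters 3, 7 and 8, and 1 in cluster 6, and 3 pairs were lower. With an adjusted p under 0.001, clusters 6 and 8 had 2 and 0 members called and 6 pairs were lower. Folds less the shift left 1 member called in cluster 6 and 0 in cluster 7, and 6 pairs lower. Shares of all genes called at these other settings are not given here. The counts therefore show only how the calls depend on the rule, and do not set the members against other genes. The shift also changed the sign of 7 uncalled pairs, none with a deposited fold above 0.21. A count was taken as the same within 1.5 times, a percentile within 10 points and a level within 10%. By these, 61 of 109 alternatives agreed, with 7 of 20 for the spread percentiles and 6 of 6 for the levels. The 6 level alternatives cover only the ratio of cluster 0 to cluster 2 for Cdk6, Cdkn2c and Ccnd2. Solved from the folds instead, clusters 6 to 10 had 349, 288, 161, 95 and 3 cells, against the 310, 267, 173, 112 and 10 used. Levels and counts in these clusters are less sure for that reason. The 5 genes most like Cdk6 kept between 0 and 4 of their places under other clusters or Spearman's rho. Reading the folds as ratios of plain means was added after the data were seen. No paired analysis was possible because each group was 1 library and the tables pool all 6. Depth limits 8 of the 110 pairs most, with under 20 counts, 7 of them in cluster 10.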

Other observations

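For the other members the genes of most similar pattern over clusters 0 to 9, among the same 8528 genes, were read after the values were seen. They are given as descriptions over 10 clusters that share the pooled rest. The first genes for Ccnd1, Ccnd2, Ccnd3 and Cdkn1b were Paip2b (Pearson r 0.894), Myadm (0.901), Nelfb (0.954) and Kctd18 (0.943). Over the 6 large clusters alone their r was 0.822, 0.825, 0.785 and 0.806. More genes are given below for the remaining members. Cdk4 was most like Npm3 (Pearson r 0.968), a histone chaperone gene, Dnajc2 (0.968), a ribosome-associated chaperone gene, and Hprt (0.965), the purine salvage enzyme gene. In the 6 large clusters alone the r of Npm3 with Cdk4 was 0.986 and that of Dnajc2 was 0.963.

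Cdkn2c was most like Aldh1a1 (0.935), which encodes a retinaldehyde dehydrogenase, and Sdsl (0.933), and both kept an r of 0.947 or more in the 6 large clusters. Rbl2 was most like Trpc6 (0.978) and the cohesin subunit genes Smc1a (0.963) and Rad21 (0.962), whose r in the 6 large clusters was 0.980, 0.935 and 0.990.

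Cdkn1a was most like Csrnp1 (0.974), Icam1 (0.961) and Tsc22d2 (0.956). In the 6 large clusters the r of Csrnp1 was 0.922, while that of Icam1 was 0.246 and that of Tsc22d2 was 0.0233, so the last pair rests on the smaller clusters, cluster 9 among them, where their deposited log2 folds were 1.40 and 1.87. Rb1 was most like Sik1 (0.976), a kinase gene at 2.15 in cluster 9, and the 2 members Cdkn1a and Rb1 had an r of 0.84 with each other. Both members were high in cluster 9 (3.34 and 0.86, the second not called). In the large clusters their folds had the same sign in clusters 0, 2 and 3 and opposite signs in clusters 1, 4 and 5.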
